A study of Macaca mulatta with 8 samples.

Results

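The genes described here encode the cyclic AMP (cAMP) and heterotrimeric G protein machinery of rhesus macaque granulosa cells. Members were taken by symbol: every gene whose single symbol in GEO's platform annotation begins with ADCY, PDE and a number, PRKAC, PRKAR, AKAP, RGS and a number, GNAI, GNAO, GNAQ, GNAS, GNB and a number or GNG and a number, with RGS2 and PDE8A left out. The rule found 77 genes among the 14132 measured with a single symbol, and each was represented by its probe set with the highest mean over all arrays. The cells came either from follicles of females given follicle-stimulating hormone (FSH) followed by human chorionic gonadotropin (hCG) for maturation in vivo (VVM-GC, 4 arrays), or from follicles under FSH alone, before maturation (PM-GC, 4 arrays). All 8 samples therefore share FSH stimulation, and the groups differ by hCG. Each array carried RNA that had been amplified from 50 ng of total RNA. The series design calls the cells mural granulosa cells, whereas the source labels speak of granulosa cells of cumulus-oocyte complexes. Nothing in the labels ties samples to animals or follicles or speaks of pooling, so p-values measure only the spread between these samples, which may be technical in part.

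hCG acts on the receptor of luteinizing hormone, which, like the FSH receptor, activates the stimulatory G protein and through it adenylyl cyclase. The cAMP that adenylyl cyclase makes binds the regulatory subunits of protein kinase A (PKA) and frees the catalytic subunits, A-kinase anchoring proteins (AKAPs) hold PKA at particular sites in the cell, and phosphodiesterases (PDEs) break cAMP and its relative cGMP down. Inhibitory alpha subunits restrain adenylyl cyclase, beta and gamma subunits carry signals of their own, and regulators of G protein signalling (RGS) speed the return of alpha subunits to the inactive state. In rodents, cGMP made in granulosa cells passes to the oocyte and keeps its cAMP high before the ovulatory stimulus.

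Values below are log2 intensities, and a difference is VVM-GC minus PM-GC on the log2 scale, so that a difference of 1 is 2-fold. The array medians lay between 5.44 and 5.54, correlations across probe sets were 0.974 to 0.984 within VVM-GC, 0.984 to 0.988 within PM-GC and 0.935 to 0.957 between the groups. Of 12 measured granulosa cell markers, 11 lay above the median gene in mean signal, and 9 of the 12 fell after hCG. All 10 genes chosen to check the ovulatory stimulus passed the threshold in limma's test, 8 higher and 2 lower. AREG, an EGF-like growth factor, was higher by 6.77 and MKI67, a marker of dividing cells, lower at a difference of -3.00. These 10 genes were chosen with earlier results of these data known, so their passing is not an independent check. A sample of whole cells cannot tell fewer cells of a type from less RNA per cell.

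After hCG, 2 phosphodiesterase genes and 1 inhibitory alpha subunit gene stood out in the size of their change. PDE5A, the cGMP-specific phosphodiesterase, was 12.7-fold higher, PDE7A, a cAMP-specific phosphodiesterase, 9.27-fold higher, and GNAI1, the inhibitory alpha subunit 1, 6.88-fold higher. GNB1, a beta subunit, and RGS14, a regulator of inhibitory alpha subunits, were 1.76-fold higher each. AKAP7, a small anchor of PKA at membranes, was 1.58-fold lower, and RGS12 and PDE1C were 1.40-fold lower each. The other 69 members did not pass the threshold.

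In numbers, 8 of 77 members passed an adjusted p of 0.05 in limma's test, which is 10.4% against 23.8% of all genes tested. Of the members, 5 rose (6.49%, against 11.3% of all genes) and 3 fell (3.90%, against 12.5% of all genes). At an unadjusted p of 0.05 the counts were 8 higher and 8 lower, and the share of all genes at that level is not given here. Many members were dim: 31 of 77 lay above the median gene in mean signal, and 7 of these 31 passed (22.6%), against 34.2% of all genes above that median. Of the 46 dimmer members 1 passed, PDE1C (2.17%, against 13.3% of all dimmer genes). The groups did not overlap for 10 members (13.0%, against 27.2% of all genes). VVM-GC was higher for 5 of them (6.49% of members, against 11.8% of all genes) and lower for 5 (6.49%, against 15.4% of all genes). Those 10 are the members that passed, except PDE1C, with ADCY3, ADCY6 and GNB4, which did not pass. The median difference was -0.04 over the members and -0.09 over all genes. Of the 69 members that did not pass, 63 had a 95% interval of the difference that lay wholly between -1 and 1. The count of 3 lower members was 1 with each array centred on its median, when adjusted over all probe sets, and without VVM-GC array 1 or PM-GC array 4, and it was 5 without VVM-GC array 3. The count of 5 higher members was 9 without VVM-GC array 4. Under these alternatives 6 to 12 of the 77 members passed in either direction, against 19.1% to 23.7% of all genes.

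**Figure D1:**
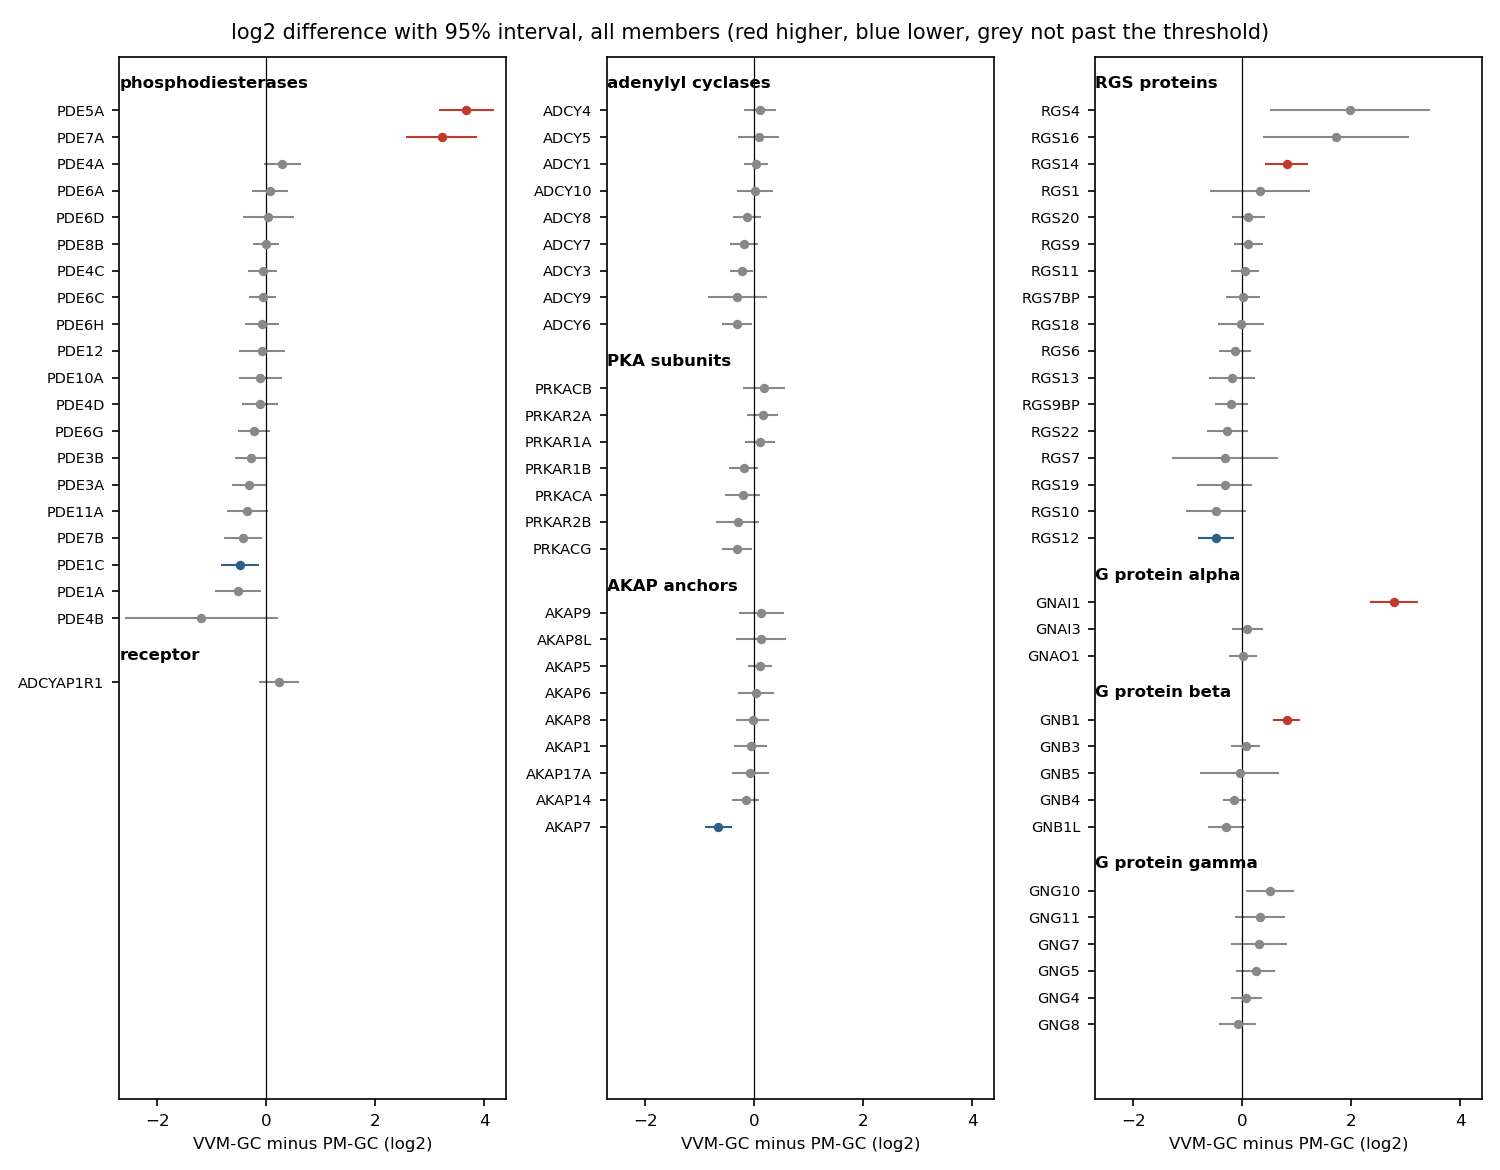
Difference between VVM-GC and PM-GC (log2, horizontal axis) with its 95% interval from limma for each of the 77 members, grouped by role. Red points are the 5 higher members, blue points the 3 lower ones and grey points the 69 that did not pass. PDE5A, PDE7A and GNAI1 lie beyond 2, RGS4, RGS16 and PDE4B have the widest intervals, and most of the others lie near 0.

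Phosphodiesterases end the cAMP and cGMP signals, and 20 of the members carry that name. Among them 2 rose, 1 fell and 17 did not pass, and their median difference was -0.10. PDE5A read 10.46, 11.12, 11.25 and 11.18 in VVM-GC arrays 1 to 4, against 7.74, 6.99, 7.06 and 7.57 in PM-GC arrays 1 to 4. The lowest VVM-GC array, array 1, was well above the highest PM-GC array, and PDE5A rose by 3.66 (SE 0.23, 95% interval 3.16 to 4.17, adjusted p = 6.6e-06). PDE5A has 5 probe sets of unequal response, and the average of all 5 rose by 1.10 (adjusted p = 0.000538).

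PDE7A, which hydrolyses cAMP, read 9.05, 10.23, 10.39 and 10.17 in VVM-GC arrays 1 to 4, against 6.43, 6.90, 7.13 and 6.53 in PM-GC arrays 1 to 4. All VVM-GC arrays lay above all PM-GC arrays, with VVM-GC array 1 again the lowest of its group. PDE7A rose by 3.21 (SE 0.29, 95% interval 2.56 to 3.86, adjusted p = 6.71e-05), or by 2.04 when both probe sets were averaged. Its paralog PDE7B, also specific for cAMP, averaged 5.34 ± 0.19 in VVM-GC and 5.78 ± 0.25 in PM-GC (SD, n = 4 each, difference -0.44, adjusted p = 0.0704). PDE7B passed as lower without VVM-GC array 3 (-0.53, adjusted p = 0.0372) and without PM-GC array 2 (-0.55, adjusted p = 0.0247). The difference of PDE7A exceeded that of PDE7B by 3.65 (SE 0.36, exact two-sided permutation p = 0.0286 over the 70 splits of the arrays, the smallest p this design allows). This was 1 of 6 contrasts between paralogs that were set after the values had been seen, with an adjusted p of 0.0429 over the 6. That adjustment does not allow for the choice of the pairs.

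The other enzymes specific for cAMP among the members were PDE4A, PDE4B, PDE4C, PDE4D and PDE8B, and none of them passed. PDE4D, whose loss impairs ovulation in mice, averaged 5.45 ± 0.27 in VVM-GC and 5.56 ± 0.14 in PM-GC (95% interval of the difference -0.45 to 0.22). PDE4B had a wide interval and is described with the variable members below. PDE8B differed by -0.01 with the probe set used here, and the average of its 3 probe sets was higher by 0.43 (adjusted p = 0.0224).

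The 6 members that hydrolyse both cAMP and cGMP (PDE1A, PDE1C, PDE3A, PDE3B, PDE10A and PDE11A) had differences of -0.53 to -0.11, and 1 of them passed. PDE1C, an enzyme switched on by calcium and calmodulin, read 5.28, 5.49, 5.87 and 5.60 in VVM-GC arrays 1 to 4, against 5.84, 5.97, 6.07 and 6.31 in PM-GC arrays 1 to 4. The groups overlapped at VVM-GC array 3 and PM-GC array 1. PDE1C fell by 0.48 (SE 0.15, adjusted p = 0.0473), and this call was lost under 10 of 15 alternatives; with 32 added to each intensity it was -0.31 (adjusted p = 0.0561). PDE1A, of the same subfamily, differed by -0.53 (SE 0.19, adjusted p = 0.0752). PDE1A passed with the replicate number as a block (adjusted p = 0.0336) and without PM-GC array 3 (-0.68, adjusted p = 0.0236), and averaging 5 probe sets gave -0.19 (adjusted p = 0.179). In the contrast of both genes, the difference of PDE1C exceeded that of PDE1A by 0.04 (SE 0.28, exact two-sided permutation p = 0.886). A p of this size does not show that the 2 genes responded alike.

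Beside PDE5A, the members named as subunits of the photoreceptor cGMP enzyme were PDE6A, PDE6C, PDE6D, PDE6G and PDE6H, not all of which are catalytic. They had differences of -0.23 to 0.07 with none past the threshold. PDE12 carries the family's name but degrades short 2′-5′ linked RNA in mitochondria and not cyclic nucleotides. PDE12 averaged 8.43 ± 0.35 in VVM-GC and 8.52 ± 0.22 in PM-GC (SD, n = 4 each, adjusted p = 0.783).

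**Figure D2:**
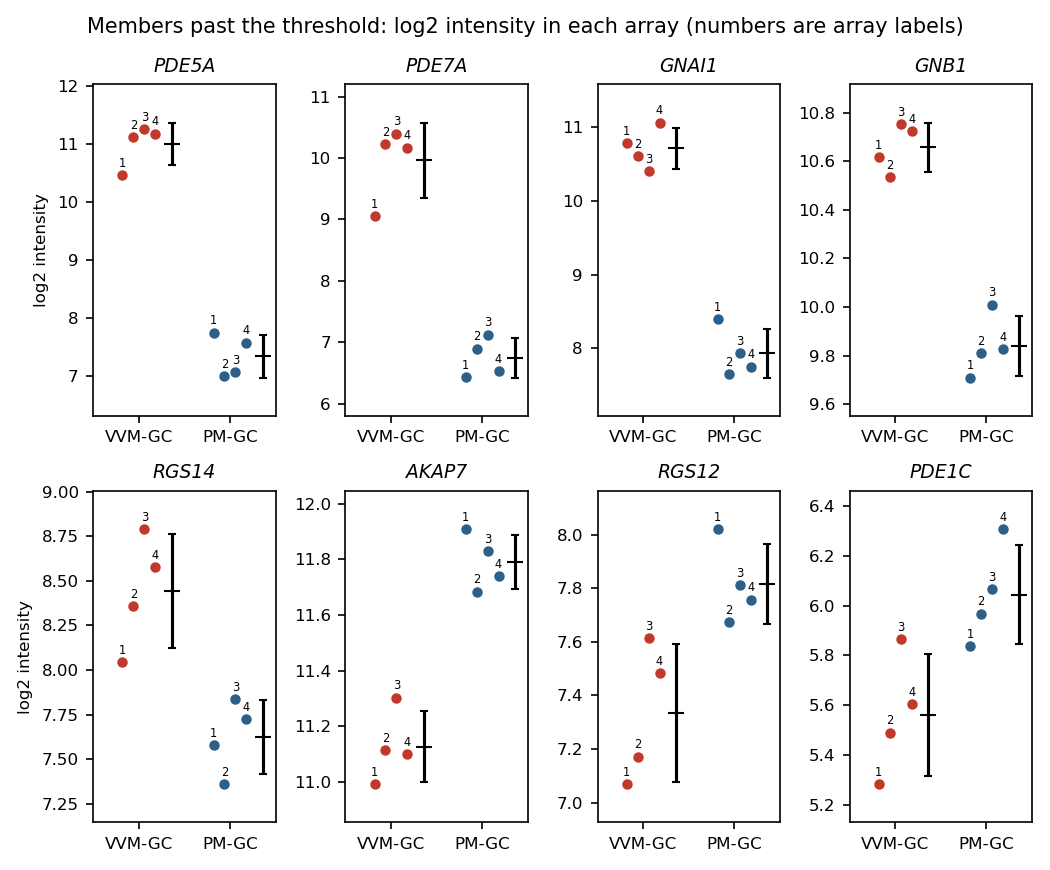
log2 intensity (vertical axis, its own range in each panel) of the 8 members past the threshold in every array, VVM-GC in red and PM-GC in blue, with the group mean and SD as black bars. The groups are apart in every panel except that of PDE1C, and VVM-GC array 1 is the lowest of its group for PDE5A and PDE7A.

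Adenylyl cyclases make cAMP, and none of the 9 members (ADCY1, ADCY3, ADCY4, ADCY5, ADCY6, ADCY7, ADCY8, ADCY9 and ADCY10) passed the threshold. Their differences lay between -0.31 and 0.11, with a median of -0.13, and all 9 intervals lay between -1 and 1. ADCY6, a form inhibited by calcium, read 7.55, 7.30, 7.43 and 7.40 in VVM-GC arrays 1 to 4, against 7.83, 7.93, 7.62 and 7.55 in PM-GC arrays 1 to 4. The groups of ADCY6 met without overlap, at 7.55 in both VVM-GC array 1 and PM-GC array 4 after rounding (difference -0.31, SE 0.12, adjusted p = 0.0939), and among the alternatives it passed only when the arrays were quantile normalized again (-0.38, adjusted p = 0.0427). ADCY3, dimmer and also without overlap, averaged 5.66 ± 0.04 in VVM-GC and 5.90 ± 0.04 in PM-GC (SD, n = 4 each, difference -0.23, adjusted p = 0.0999), and it passed with 32 added to each intensity (-0.15, adjusted p = 0.0418). ADCY9, a form widely expressed in tissues, averaged 7.86 ± 0.48 in VVM-GC and 8.17 ± 0.31 in PM-GC (95% interval of the difference -0.86 to 0.24). ADCYAP1R1, which the rule takes in by its letters, is no cyclase but the receptor of the peptide PACAP, which signals through cAMP. ADCYAP1R1 averaged 9.93 ± 0.23 in VVM-GC and 9.69 ± 0.25 in PM-GC (95% interval of the difference -0.13 to 0.60, adjusted p = 0.337).

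PKA is the main receiver of cAMP, and none of its 7 subunit genes passed. Their differences lay between -0.32 and 0.18 with a median of -0.20. PRKAR1A and PRKAR2B encode regulatory subunits that hold the kinase inactive. PRKAR1A averaged 10.41 ± 0.15 in VVM-GC and 10.31 ± 0.15 in PM-GC (95% interval of the difference -0.17 to 0.38), and its difference of 0.11 turned to -0.04 when the arrays were quantile normalized again. PRKAR2B, known to be induced by FSH in rat granulosa cells, averaged 11.90 ± 0.24 in VVM-GC and 12.21 ± 0.28 in PM-GC (95% interval of the difference -0.69 to 0.08, adjusted p = 0.238). The catalytic subunit genes PRKACA and PRKACB differed by -0.21 (SE 0.14) and 0.18 (SE 0.17). PRKACG, PRKAR1B and PRKAR2A were the remaining subunit genes.

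Of the 9 AKAP genes (AKAP1, AKAP5, AKAP6, AKAP7, AKAP8, AKAP8L, AKAP9, AKAP14 and AKAP17A), 1 fell and 8 did not pass. AKAP7, which ties PKA to the plasma membrane and to ion channels, read 10.99, 11.11, 11.30 and 11.10 in VVM-GC arrays 1 to 4, against 11.91, 11.68, 11.83 and 11.74 in PM-GC arrays 1 to 4. Every VVM-GC array lay below every PM-GC array, and AKAP7 fell by 0.66 (SE 0.11, 95% interval -0.91 to -0.42, adjusted p = 0.00205). All 3 of its probe sets fell, with differences of -0.52, -0.66 and -1.62. AKAP1, the anchor at the mitochondrial surface, averaged 9.69 ± 0.03 in VVM-GC and 9.76 ± 0.25 in PM-GC (95% interval of the difference -0.36 to 0.23). AKAP17A, which also takes part in RNA splicing, differed by -0.07 (SE 0.15, adjusted p = 0.76). The 8 AKAP genes that did not pass had differences of -0.16 to 0.13, and those of AKAP1 and AKAP17A were above 0 without PM-GC array 1.

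Among the G protein subunits, alpha, beta and gamma genes each had several members that did not pass beside 1 alpha and 1 beta gene that rose. GNAI1 read 10.79, 10.61, 10.40 and 11.06 in VVM-GC arrays 1 to 4, against 8.40, 7.65, 7.93 and 7.75 in PM-GC arrays 1 to 4. The lowest VVM-GC array lay above the highest PM-GC array by a wide margin, and GNAI1 rose by 2.78 (SE 0.19, 95% interval 2.35 to 3.22, adjusted p = 1.4e-05). GNAI3, the paralog with the same inhibitory role, read 12.55, 12.38, 12.11 and 12.28 in VVM-GC arrays 1 to 4, against 12.05, 12.32, 12.29 and 12.28 in PM-GC arrays 1 to 4. The groups of GNAI3 overlapped (difference 0.09, SE 0.13, adjusted p = 0.638). With the chosen probe sets, the difference of GNAI1 exceeded that of GNAI3 by 2.69 (SE 0.26, exact two-sided permutation p = 0.0286, adjusted p = 0.0429 over the 6 paralog contrasts). This pair too was set after the values had been seen, so the contrast is no support separate from the call of GNAI1. The average of the 4 probe sets of GNAI3 was higher by 0.44 and passed (adjusted p = 0.0121). GNAO1, the alpha subunit abundant in neurons, averaged 4.45 ± 0.16 in VVM-GC and 4.44 ± 0.10 in PM-GC (adjusted p = 0.947). No gene was taken in by the letters GNAS or GNAQ, and the stimulatory subunit was not analysed here.

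GNB1, the beta subunit found in most cells, read 10.62, 10.53, 10.75 and 10.73 in VVM-GC arrays 1 to 4, against 9.71, 9.81, 10.01 and 9.83 in PM-GC arrays 1 to 4. The groups did not overlap, and GNB1 rose by 0.82 (SE 0.11, 95% interval 0.57 to 1.07, adjusted p = 0.000608). Averaged over 3 probe sets, GNB1 was higher by 0.42 (adjusted p = 0.0236). The other beta subunit genes, GNB3, GNB4 and GNB5, differed by 0.06 (SE 0.12), -0.14 (SE 0.10) and -0.04 (SE 0.32). They were dimmer, with means over all arrays of 5.83, 6.48 and 5.61 against 10.25 for GNB1, and dim probe sets may miss a change. With the chosen probe sets, the difference of GNB1 exceeded those of GNB3 by 0.76 and of GNB4 by 0.96 (exact two-sided permutation p = 0.0286 each, adjusted p = 0.0429). The excess of 0.86 over GNB5 had an exact two-sided permutation p of 0.0571 (adjusted p = 0.0686). These pairs too were set after the values had been seen, and the contrasts do not show a response particular to GNB1. GNB1L shares the fold of beta subunits but is not known to bind gamma subunits, and it differed by -0.30 (SE 0.15, adjusted p = 0.18). The 6 gamma subunit genes (GNG4, GNG5, GNG7, GNG8, GNG10 and GNG11) had differences of -0.08 to 0.51 with none past the threshold. GNG10 averaged 9.97 ± 0.41 in VVM-GC and 9.46 ± 0.14 in PM-GC (adjusted p = 0.0861), and it passed without VVM-GC array 4 (0.66, adjusted p = 0.0265). GNG7, which averaged 6.24 ± 0.50 in VVM-GC and 5.93 ± 0.18 in PM-GC (adjusted p = 0.374), also passed without that array (0.54, adjusted p = 0.0425). GNG5 averaged 11.65 ± 0.23 in VVM-GC and 11.40 ± 0.25 in PM-GC (95% interval of the difference -0.11 to 0.61).

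RGS proteins and their binding partners made up 17 members, of which 1 rose, 1 fell and 15 did not pass. RGS14, which acts on inhibitory alpha subunits and also binds their inactive form, read 8.04, 8.36, 8.79 and 8.58 in VVM-GC arrays 1 to 4, against 7.58, 7.36, 7.84 and 7.72 in PM-GC arrays 1 to 4. The groups did not overlap, and RGS14 rose by 0.82 (SE 0.18, 95% interval 0.42 to 1.21, adjusted p = 0.00801). Its second probe set differed by -0.05, and the average of both no longer passed (0.38, adjusted p = 0.0933). RGS12, the closest relative of RGS14 in domain order, read 7.07, 7.17, 7.61 and 7.48 in VVM-GC arrays 1 to 4, against 8.02, 7.67, 7.81 and 7.76 in PM-GC arrays 1 to 4. The groups came close to each other without overlap, and RGS12 fell by 0.48 (SE 0.15, adjusted p = 0.0412). The call for RGS12 was lost under 11 of 16 alternatives, among them averaging 5 probe sets (-0.16, adjusted p = 0.29) and the fit with the replicate number as a block (adjusted p = 0.0771). For comparison, RGS2, which the rule leaves out, averaged 13.03 ± 0.56 in VVM-GC and 9.34 ± 0.41 in PM-GC, and PDE8A, also left out, averaged 8.37 ± 0.25 in VVM-GC and 8.85 ± 0.14 in PM-GC.

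Some members varied widely between the VVM-GC arrays. The SD within VVM-GC was over 1 for 4 of 77 members (5.19%, against 1.53% of all genes), namely RGS4, RGS16, PDE4B and RGS7, and within PM-GC it was over 1 for none of the 77 members (against 0.29% of all genes). The median SD over the members was 0.19 in VVM-GC and 0.18 in PM-GC. PDE4B, with an SD of 1.44 in VVM-GC and 0.60 in PM-GC, and RGS4, with 1.56 in VVM-GC and 0.49 in PM-GC, also lay above the median in PM-GC, and 0.60 was the highest SD of any member there. RGS4, which acts on inhibitory and Gq-type alpha subunits, read 9.54, 9.61, 8.69 and 6.28 in VVM-GC arrays 1 to 4, against 5.88, 6.57, 6.69 and 7.06 in PM-GC arrays 1 to 4. VVM-GC arrays 1 to 3 lay above all PM-GC arrays and VVM-GC array 4 among them, so that the difference of 1.98 had an SE of 0.65 and did not pass (95% interval 0.51 to 3.45, adjusted p = 0.0553). Without VVM-GC array 4 it was 2.73 (adjusted p = 0.000391), and it also passed among genes above the median signal (adjusted p = 0.035) and when 3 probe sets were averaged (1.03, adjusted p = 0.0404).

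RGS16, a relative of RGS4 with the same targets, read 8.25, 8.92, 6.51 and 5.73 in VVM-GC arrays 1 to 4, against 5.48, 5.60, 5.73 and 5.70 in PM-GC arrays 1 to 4. VVM-GC arrays 1 and 2 were high, array 3 was between and array 4 lay at the level of PM-GC (difference 1.72, SE 0.60, adjusted p = 0.0658). The difference was 2.27 without VVM-GC array 4 (adjusted p = 0.0091) and 2.0 without VVM-GC array 3 (adjusted p = 0.0469). PDE4B, a cAMP-specific enzyme that cAMP itself can induce, read 8.41, 9.50, 7.08 and 6.25 in VVM-GC arrays 1 to 4, against 8.96, 8.85, 8.40 and 9.83 in PM-GC arrays 1 to 4. VVM-GC arrays 3 and 4 lay below all PM-GC arrays and arrays 1 and 2 within their range (difference -1.20, SE 0.62, 95% interval -2.60 to 0.20, adjusted p = 0.205). The difference of PDE4B was -1.76 without VVM-GC array 2 (adjusted p = 0.0372) and -0.68 without VVM-GC array 4 (adjusted p = 0.406).

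RGS7, best known from neurons, read 8.06, 7.18, 9.43 and 7.31 in VVM-GC arrays 1 to 4, against 8.0, 8.44, 8.62 and 8.16 in PM-GC arrays 1 to 4. Here VVM-GC array 3 was the highest of all 8 arrays (difference -0.31, adjusted p = 0.649), and without it the difference was -0.79 (adjusted p = 0.0413). The difference of RGS7 was -0.04 without VVM-GC array 2 and -0.08 without VVM-GC array 4 (adjusted p = 0.96 and 0.921). RGS1, abundant in lymphocytes, had VVM-GC array 3 as the lowest of all 8 arrays at 3.21 (difference 0.33, SE 0.41, adjusted p = 0.604), and without it the difference was 0.78 (adjusted p = 0.0301), against 0.05 without VVM-GC array 4 (adjusted p = 0.939). Of 10 leukocyte markers, 4 were also lowest of all 8 arrays in VVM-GC array 3 (PTPRC at 3.89, TYROBP at 6.19, CD14 at 5.89 and CSF1R at 7.02), and the summed intensity of the list was 936 there, against 1275 to 1716 in the other VVM-GC arrays and 1730 to 1981 in the PM-GC arrays. That sum includes CSF1R, the only marker of the 10 that fell, so its gap between the groups is not shown for the other 9. RGS10, known from leukocytes and brain, had VVM-GC array 4 as the lowest at 5.80 (difference -0.48, SE 0.24, adjusted p = 0.196). The difference of RGS10 was -0.22 without that array (adjusted p = 0.34) and -0.09 when 3 probe sets were averaged (adjusted p = 0.668). Of the 10 leukocyte markers, 3 were lowest in VVM-GC array 4 (CD53, ITGB2 and MS4A1), 2 in VVM-GC array 1 (AIF1 and CORO1A) and 1 in PM-GC array 3 (CD68). In VVM-GC array 4, RGS1 was the highest of all 8 arrays at 5.40. In VVM-GC array 3, where the leukocyte sum was lowest, RGS10 read 6.57. The part of leukocytes in the values of RGS1 and RGS10 was not tested. RGS4, RGS16, PDE4B, RGS7, RGS1 and RGS10 are the members that did not pass and whose 95% interval reached beyond -1 or 1. The remaining 10 RGS members (RGS6, RGS7BP, RGS9, RGS9BP, RGS11, RGS13, RGS18, RGS19, RGS20 and RGS22) had differences of -0.32 to 0.11.

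**Figure D3:**
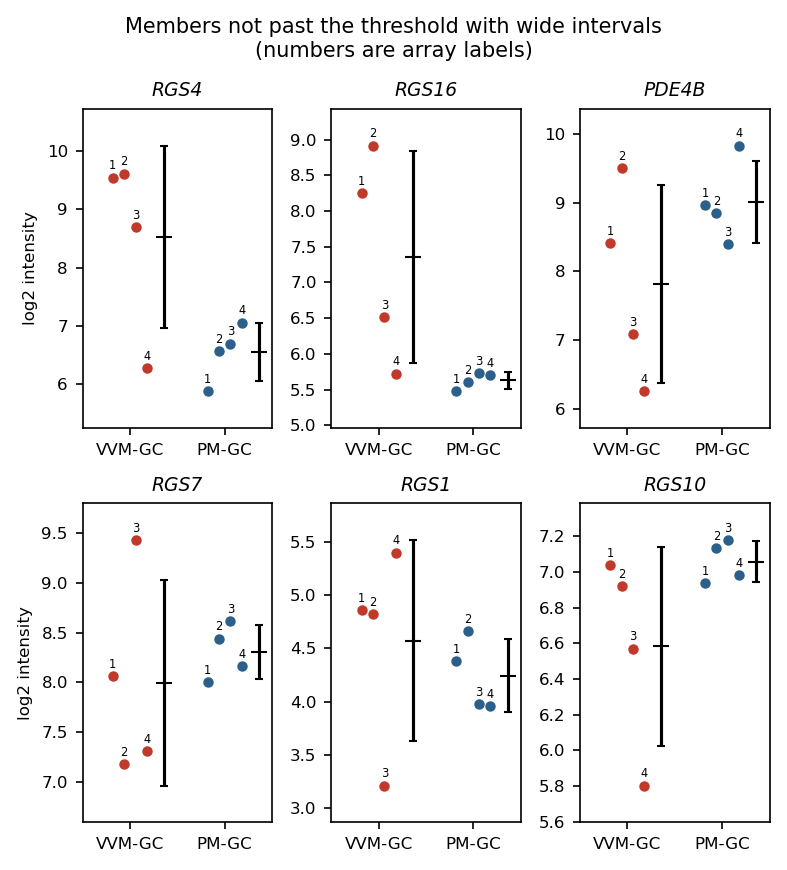
log2 intensity (vertical axis, its own range in each panel) in every array of the 6 members that did not pass and whose 95% interval reached beyond -1 or 1, VVM-GC in red and PM-GC in blue, with the group mean and SD as black bars. VVM-GC arrays 1 and 2 are the highest of their group for RGS4, RGS16 and PDE4B, and VVM-GC array 4 is the lowest for those 3 genes and RGS10.

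The array holds 151 probe sets for the 77 members, and 41 members have several. Fitted over all probe sets, 12 of the 151 rose and 4 fell, which is 10.6% against 14.1% of all probe sets. No member had probe sets that passed in opposite directions. Both probe sets of GNAI1 rose, by 2.78 and 2.93, and both of PDE7A, by 3.21 and 0.86, the second from a dim mean of 3.18 in PM-GC. Of the 5 probe sets of PDE5A, 3 rose, by 3.66, 1.11 and 0.62, and the other 2 differed by 0.08 and 0.03. The probe set of PDE5A at 0.03 averaged 3.08 in VVM-GC and 3.05 in PM-GC and the one at 0.08 averaged 6.85 in VVM-GC and 6.77 in PM-GC. Of the 3 probe sets of GNB1, 1 rose and the others differed by 0.27 and 0.18. Probe sets outside the ones chosen also passed for GNAI3 (0.78 and 0.62), PDE8B (0.97) and PDE10A (-0.55), whose chosen probe sets did not pass. Neither RGS12 nor PDE1C had a probe set that passed over all probe sets.

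**Figure D4:**
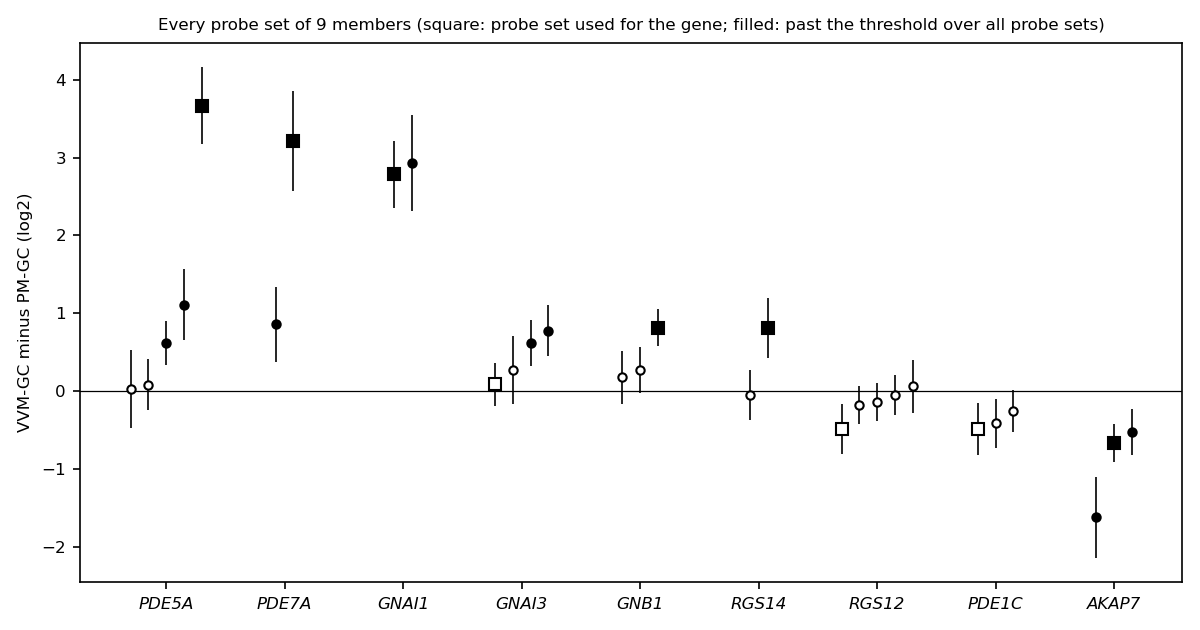
Difference between VVM-GC and PM-GC (log2, vertical axis) with its 95% interval for every probe set of the 8 members past the threshold and of GNAI3. Squares mark the probe set used for the gene and filled symbols those past the threshold over all probe sets. Both probe sets of GNAI1 and all 3 of AKAP7 pass, whereas those of PDE5A range from 0.03 to 3.66.

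The other genes of the pathway were followed in 4 lists of receptors, modulators, further alpha subunits and targets of cAMP, of which 68 genes beside the members could be matched. Of these, 13 rose, 9 fell and 46 did not pass (32.4% passed, against 23.8% of all genes), with a median difference of -0.03. The lists were chosen with earlier results of these data known, so these shares do not show that the pathway responded more than other genes. Without PM-GC array 1 or 2 the count of 9 that fell was 5. Among 18 receptors and accessory proteins, 2 rose and 3 fell. MRAP2, an accessory protein of melanocortin receptors, read 10.48, 9.53, 11.03 and 11.36 in VVM-GC arrays 1 to 4, against 6.85, 6.20, 6.85 and 6.17 in PM-GC arrays 1 to 4, and rose by 4.08 (SE 0.36, adjusted p = 6.29e-05). MRAP, its relative that serves the corticotropin receptor, fell by 1.93 (SE 0.38, adjusted p = 0.00486), or by 1.15 with both probe sets averaged. ADORA2B, an adenosine receptor that raises cAMP, rose by 1.60 (SE 0.13), or by 0.97 with 32 added to each intensity. S1PR3, a receptor of sphingosine 1-phosphate, fell by 1.98 (SE 0.27), or by 1.12 with both probe sets averaged. GIPR was the third that fell, and its call was lost under 11 of 15 alternatives. The receptors of FSH and luteinizing hormone could not be matched to a single-symbol probe set and were not analysed here.

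Of 15 genes of receptor desensitisation and G protein modulation, 2 rose and 3 fell. GRK3, a kinase that switches off active receptors, fell by 1.09 (SE 0.14, adjusted p = 0.000513). GPSM2, which binds inactive inhibitory alpha subunits and orients the mitotic spindle, fell by 1.09 (SE 0.21, adjusted p = 0.00446), or by 0.63 with 32 added to each intensity. GPSM1, its relative, rose by 0.45 (SE 0.12), and GAPVD1, which acts in endocytosis, rose by 0.71 (SE 0.20); each of these 2 calls was lost under 6 of 16 alternatives. PDC was the third that fell, and its call was lost under 10 of 15 alternatives. None of the 5 further alpha subunit genes passed.

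Of 30 PKA inhibitors, cAMP effectors and CREB family factors, 9 rose and 3 fell. POPDC3 and BVES, membrane proteins of the Popeye family that binds cAMP, rose by 1.81 (SE 0.35) and 1.31 (SE 0.27), or by 1.18 and 0.78 with 32 added to each intensity. ARPP19, a PKA substrate, rose by 1.39 (SE 0.21), but did not pass when averaged over 4 probe sets (0.12, adjusted p = 0.495). ATF1, a CREB family factor, fell by 0.89 (SE 0.21), but did not pass when averaged over 6 probe sets (-0.17, adjusted p = 0.256). PKIA, an inhibitor of the catalytic subunits of PKA, PRKX, RAPGEF2, CREB3, NR4A2 and ENSA also rose, and CRTC2 and NR4A1 also fell. The call for PRKX was lost under 7 of 16 alternatives, and those for NR4A2, CRTC2 and NR4A1 under 2 of 16 each.

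**Figure D5:**
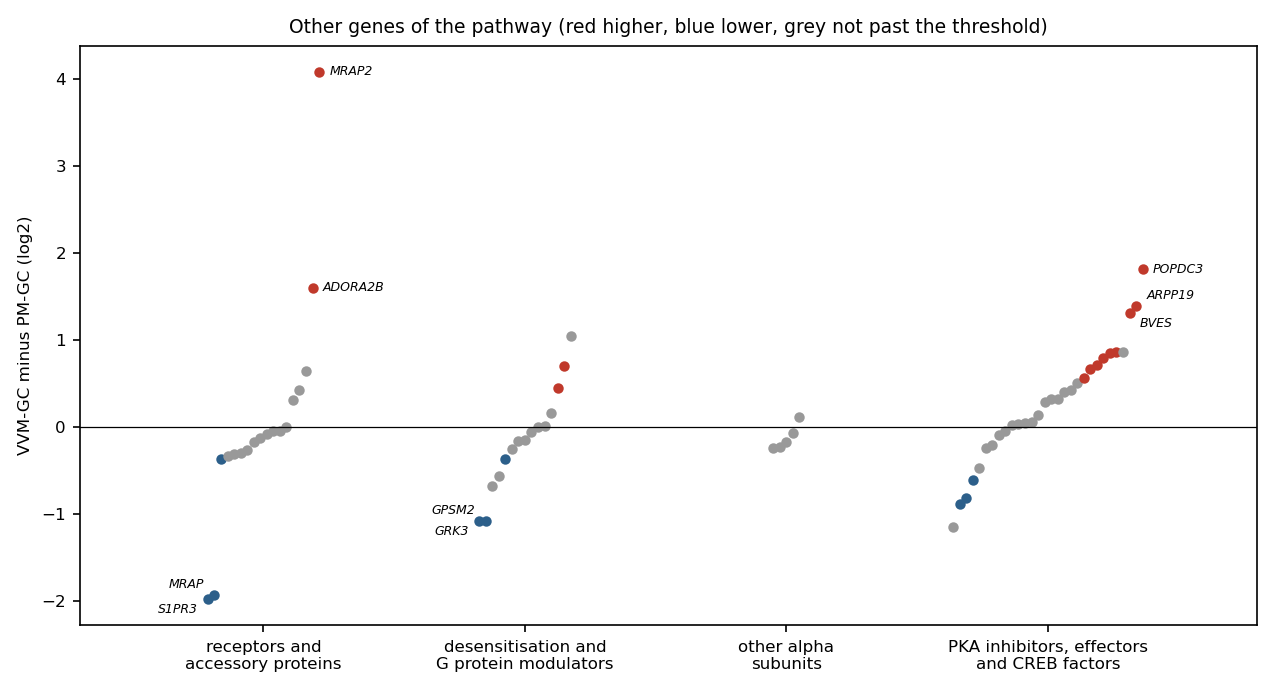
Difference between VVM-GC and PM-GC (log2, vertical axis) of the 68 other pathway genes, ordered by size within 4 lists. Red points are the 13 higher genes and blue points the 9 lower ones, those past the threshold and beyond 1 are named, and MRAP2 at 4.08 is the highest.

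Markers of other cells that the samples could hold were measured beside these results. None of 9 oocyte and 10 endothelial markers passed, 1 of 10 leukocyte markers fell (CSF1R) and 1 of 7 theca markers fell. The summed intensity of the leukocyte markers was 936 to 1716 in VVM-GC arrays and 1730 to 1981 in PM-GC arrays, and that of the 5 erythrocyte markers, of which 2 fell, was 383 to 1539 in VVM-GC and 1713 to 2363 in PM-GC. The leukocyte sum includes CSF1R, which read 7.90, 7.04, 7.02 and 7.44 in VVM-GC arrays 1 to 4, against 9.21, 9.56, 9.79 and 9.19 in PM-GC arrays 1 to 4. The other 9 leukocyte markers did not pass, and their sum without CSF1R is not given here. Of 4 stromal markers 1 rose. Of 10 surface epithelium markers 3 rose (KRT18, KRT19 and WT1) and 7 did not pass. The sum of all 10, which includes the 3 that rose, was 1301 to 2127 in VVM-GC and 824 to 1020 in PM-GC. A sum of the other 7 alone is not given here. The part of these cells in the differences of the members was not tested.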

How the data were processed

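The authors deposited RMA probe set intensities on a linear scale, made with Affymetrix Expression Console per the submitters' processing notes; the genome build is not given in the sources used here. The log2 was taken of the deposited intensities and nothing else was changed. Of 52865 rows, 99 array controls were left out. Of 52766 probe sets, 24956 have 1 gene symbol, 361 several and 27449 none; symbols were updated through the reference gene table for the 24616 whose gene ID it holds. The 14132 genes, each by its brightest probe set, entered a two-sided moderated test in limma 3.58.1 under R 4.3.3 (functions lmFit and eBayes), with Benjamini-Hochberg adjustment over all genes and a threshold of 0.05. There are no detection calls, and having 4 arrays a group limits precision. The procedure was tested on simulated data with noise drawn independently for each gene and array and few changed genes. That test does not cover deviations that genes of an array share, or a change in as many genes as passed here.

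The members and lists were chosen with earlier results of these data known. Every member past the threshold is named, with up to 2 of the brightest others per role, members whose probe sets pass in opposite directions, and pathway genes past the threshold; PDE1A, PDE4D, PDE7B, PDE8B, PDE10A, PRKACA, PRKACB, GNB3, GNB5, RGS1, RGS10, RGS16, GNG7 and ADCY3 were named after their values were seen. Promoter motifs were not analysed here. Alternatives changed normalization, background, filter, probe set choice, moderation, replicate block, the features adjusted over and the arrays included.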

Additional observations from a re-analysis of the deposited data

Results flagged for a closer look

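In groups of 4 arrays, 1 array was set apart from the other 3 by Dixon's criterion in 4 of 118 groups examined, where chance gives about 1 in 20. The groups were those of 59 named genes, 2 each, with ADCY3 and GNG7 left out. PDE5A read 10.46 in VVM-GC array 1, below 11.12 to 11.25 in the other VVM-GC arrays. PDE7A read 9.05 in the same VVM-GC array 1, below 10.17 to 10.39 in the others. Without that array PDE5A rose by 3.84 and PDE7A by 3.52. GNAI3 read 12.05 in PM-GC array 1, below 12.28 to 12.32 in the other PM-GC arrays. PDE12 read 8.84 in PM-GC array 2, above 8.36 to 8.43 in the other PM-GC arrays.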

How the results depend on the processing

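Across 16 alternatives, PDE5A, PDE7A, GNAI1, GNB1 and AKAP7 kept their direction and stayed past the threshold, and RGS14 did so in 15 of 16. The count of lower members was 1 with median centring and when adjusted over all probe sets. Leaving out 1 array at a time gave 5 to 9 higher members (9 without VVM-GC array 4), 1 to 5 lower members (1 without VVM-GC array 1 or PM-GC array 4, 5 without VVM-GC array 3), 10 to 13 higher and 5 to 11 lower pathway genes (5 without PM-GC array 1 or 2). In these fits 6 to 12 of the 77 members passed in either direction, against 19.1% to 23.7% of all genes. Of 923 single-gene values under alternatives, 70 lost a call, 16 gained one and 21 changed sign, and no member past the threshold changed sign. These values cover 59 named genes and leave out ADCY3 and GNG7, whose gained calls are given above. 1 value, PDE8B as the average of probe sets, both changed sign and gained a call; the cause was not tested.

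The fit with the replicate number as a block gave 5 higher and 3 lower members (PDE1A gained, RGS12 lost), with 1509 genes higher and 1554 lower. Deviations of same-numbered arrays correlated at 0.011, 0.165, 0.050 and -0.026, so the numbers are not taken as pairs.

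On quantile normalization PDE8B was 0.0282 and PRKAR1A -0.0389. With median centring PDE8B was 0.0337. As averages of probe sets PDE8B was 0.43 (adjusted p = 0.0224), GNB5 0.0272 and PDE12 0.0648. Leaving out 1 array at a time, the ranges were -0.0519 to 0.0389 for PDE8B, -0.304 to 0.242 for GNB5, -0.219 to 0.036 for PDE12, -0.207 to 0.00368 for PDE4D, -0.0631 to 0.0561 for GNAO1, -0.194 to 0.00043 for PDE10A, -0.168 to 0.00542 for AKAP1 and -0.216 to 0.0239 for AKAP17A. The median over all genes was -0.09, or -0.05 with median centring. The share of calls that were higher was 47.5%, 40.8% on quantile normalization and 52.4% with median centring. Dim probe sets limit what can be seen, since the files hold no detection calls.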
